A study of Homo sapiens with 42 samples.

Results

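The response of HL-60 cells to all-trans retinoic acid (ATRA) in the presence of HKMTI-1-005 was taken as the contrast of 3 arrays of cells given HKMTI-1-005 together with ATRA (HKMTI-1-005+ATRA) with 3 arrays of cells given HKMTI-1-005 without ATRA. These were chosen by their treatment labels and make up 6 of the 42 arrays of the series. HL-60 is an established, MYC-amplified human acute myeloid leukemia line, and all the groups compared came from this 1 line. Inhibitor and ATRA were used at 2.5 µM and 0.1 µM for 3 days, and the 3 arrays of a group are described as biological triplicates. For comparison, ATRA at the same dose was set against untreated cells (3 arrays each), for which the labels give no day, and was also given with 10 µM GSK343 against GSK343 without ATRA (3 arrays each). A further 6 arrays of HL-60 cells labelled WT, with ATRA (3) and without (3), supplied a set of ATRA genes chosen on other arrays. Their labels give neither dose nor day. The remaining arrays of the series were of HL-60 cells with an EZH2 knockdown or a non-targeting control, each with and without ATRA. They entered the choice of probe sets, the ranking by mean level and the shared estimate of the spread, and no comparison. RNA was hybridised to Affymetrix Human Gene 1.0 ST arrays, and every level below is a deposited log2 value, so that a difference of 1 is a doubling.

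ATRA binds nuclear retinoic acid receptors, which sit on DNA as heterodimers with retinoid X receptors and exchange corepressors for coactivators when the ligand arrives. In myeloid leukemia cells this is known to slow division and to push cells toward neutrophil-like forms with more CD11b (the product of ITGAM), NADPH oxidase and phagocytic surface proteins. HKMTI-1-005 is a substrate-competitive inhibitor of the histone H3 lysine methyltransferases EZH2, EHMT2 and EHMT1, whereas GSK343 competes with the methyl donor at EZH2. The comparison asks what ATRA changed in cells given the inhibitor over the same days.

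The arrays of HKMTI-1-005+ATRA and HKMTI-1-005 had close medians over all probe sets in the deposited values. These were 5.388 ± 0.0187 and 5.4023 ± 0.0415 (SD, n = 3 each, two-sided exact permutation test, p = 0.9, where 0.1 is the smallest possible). The values had already been normalized across arrays, so the test cannot show that the arrays were alike beforehand. All 11 measured markers of myeloblasts and promyelocytes lay in the top 40% of genes by mean level, with array means of 9.238 to 9.432 without ATRA and 9.217 to 9.318 with it. Of 43 measured markers of erythroid, megakaryocytic, lymphoid, monocytic, eosinophilic, basophilic and mast cells, 0 lay in that range. A wider list of monocyte and macrophage genes had 5 of 19 measured members there, of which CCR2 and CD68 rose (described below), while LYZ, CD4 and SPP1 had log2 fold changes of -0.48, 0.26 and -0.92 and did not pass. Wider lymphoid, erythroid and megakaryocyte, and eosinophil, basophil and mast cell lists had 1 gene each there (CD4, TFRC and RNASE2), and 0 were called. The part of other cell types in the results was not tested. CD14, the monocyte marker, was 4.78, 4.81 and 4.95 without ATRA and 4.38, 4.48 and 4.42 with it, close to the low end of the scale in both groups. The mean of 192 small nucleolar RNA genes, a sign of RNA handling, was 7.15 on HKMTI-1-005 replicate 2 and 7.92 on replicate 1, and its part in the results was not tested. In RNA from whole cultures, a change in the share of a kind of cell and a change in RNA per cell cannot be told apart.

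ATRA in the presence of HKMTI-1-005 raised 175 genes and lowered 123 of the 7367 that could be called, which is 2.38% and 1.67% (4.05% together). To be called, a gene had to change by 1.3-fold or more with a Benjamini-Hochberg adjusted p no higher than 0.05 (limma), and to lie in the top 40% by mean level. The groups of arrays did not overlap for 174 of the 175 and 122 of the 123, and also not for 1992 (27%) of all 7367 genes. Changes were at least 2-fold for 68 of the raised and 32 of the lowered genes, and the median size was 0.83 among rises and -0.74 among falls. The count depended on single arrays: 175 genes were called without HKMTI-1-005+ATRA replicate 1, 168 without HKMTI-1-005 replicate 2 and 184 without HKMTI-1-005 replicate 1. Whichever array was left out, 81 of the raised and 49 of the lowered genes were still called. The plot of levels by array shows the genes with the largest changes.

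**Figure D1:**
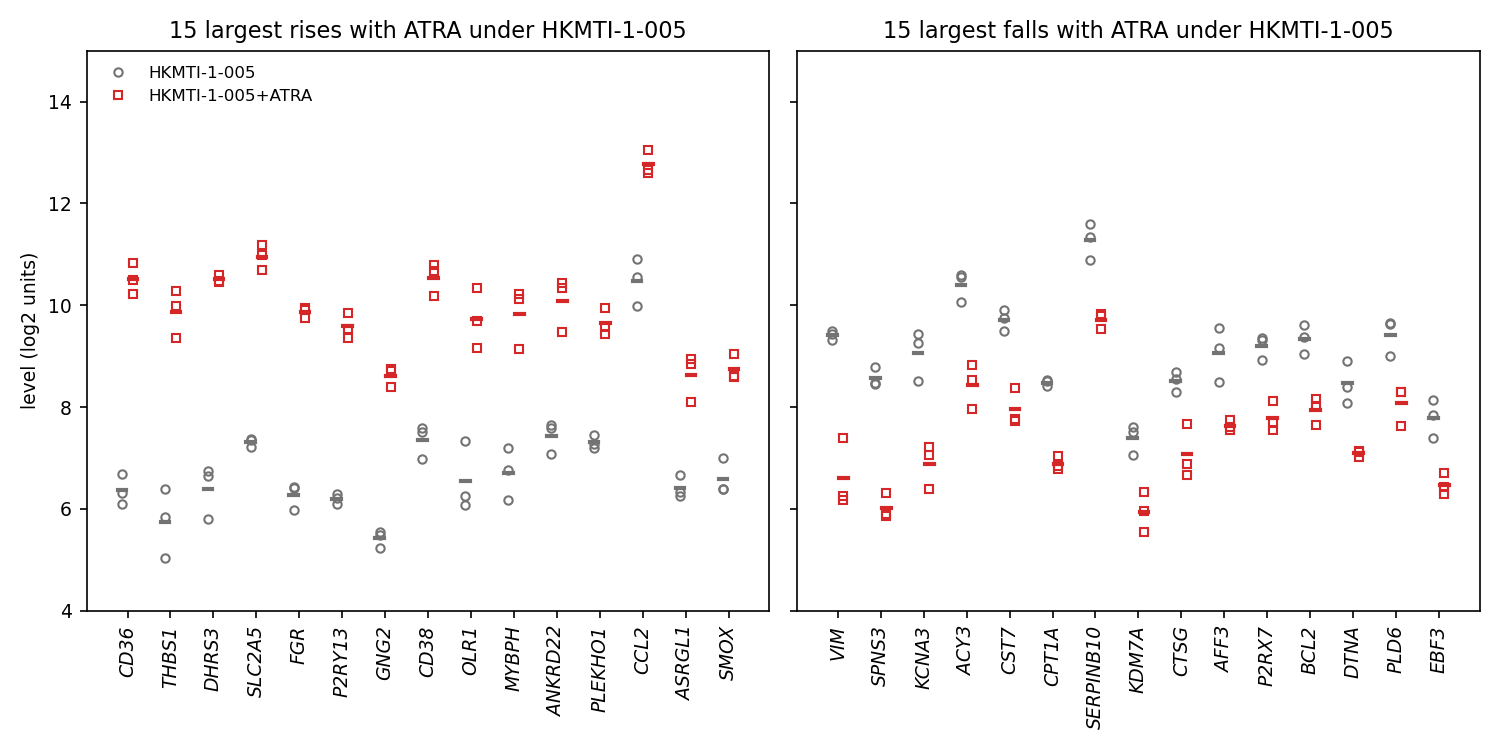
Levels (log2 units) of the 15 genes with the largest rises (left) and the 15 with the largest falls (right) in HKMTI-1-005 cells without ATRA (grey circles) and with ATRA (red squares); each point is 1 array and each bar a mean of 3. Genes were chosen among those whose groups do not overlap. CD36 rises from 6.11 to 6.68 without ATRA to 10.23 to 10.83 with it.

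Among the largest rises were CD36, THBS1 and OLR1 of the scavenger receptor and lipid uptake list. CD36, a scavenger receptor that takes up fatty acids and oxidised lipoproteins, was at 6.32, 6.11 and 6.68 with HKMTI-1-005 and at 10.50, 10.23 and 10.83 after ATRA was added. The lowest array with ATRA stood far above the highest without it, and the change was 17.8-fold (log2 fold change 4.15, standard error 0.39, adjusted p = 9.98e-09, limma). THBS1, which encodes thrombospondin-1, a ligand of CD36, was at 5.83, 5.03 and 6.39 without ATRA and at 9.99, 9.35 and 10.28 with it (log2 fold change 4.12, adjusted p = 4.63e-08, limma). OLR1, the receptor for oxidised low-density lipoprotein, went from 6.25, 6.07 and 7.33 to 9.69, 9.17 and 10.35 (log2 fold change 3.18, adjusted p = 0.00036, limma). In both groups of OLR1, replicate 3 was the highest array. CD68, a membrane glycoprotein of phagocyte lysosomes, rose by a log2 fold change of 0.78 (adjusted p = 0.0138, limma). CD68 was not called when HKMTI-1-005 replicate 1 or 2 or HKMTI-1-005+ATRA replicate 1 or 2 was left out (highest adjusted p = 0.094). These 4 were the called genes among 8 members of the scavenger receptor list in the callable range, where 2.38% of all 7367 genes were called higher. The other 4 members had log2 fold changes of -0.32 (SCARB2) to -0.10 (VLDLR).

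Genes known to answer to retinoic acid rose or did not pass the test. Of 10 such genes in the callable range, 6 rose and 0 fell, with a median log2 fold change of 1.22 against -0.01 over all 7367 genes. The share called higher over all genes was 2.38%. Without an inhibitor 8 of the 10 were called higher, and under GSK343 7 were. DHRS3, a retinal reductase that lowers the supply of retinoic acid, was at 6.65, 6.74 and 5.81 without ATRA and at 10.49, 10.45 and 10.59 with it (log2 fold change 4.11, standard error 0.29, adjusted p = 8.71e-12, limma). The 3 arrays with ATRA lay within a narrow span, while HKMTI-1-005 replicate 3 was the lowest of all. CD38, an ectoenzyme that consumes NAD and a surface marker of the ATRA response, went from 6.97, 7.58 and 7.52 to 10.67, 10.78 and 10.19 (log2 fold change 3.19, adjusted p = 3.74e-09, limma). NRIP1, a coregulator of nuclear receptors, rose from 8.80, 9.09 and 9.14 to 10.94, 10.52 and 10.36 (log2 fold change 1.60, adjusted p = 4.7e-05, limma). The others called were FGR and ICAM1, described with their families below, and CEBPE, a transcription factor of granulocyte maturation, with a log2 fold change of 0.85 (adjusted p = 0.00984, limma). CEBPE was not called without HKMTI-1-005 replicate 1 or 2 or HKMTI-1-005+ATRA replicate 1 (highest adjusted p = 0.11), nor ICAM1 without HKMTI-1-005 replicate 2 or HKMTI-1-005+ATRA replicate 1 (highest adjusted p = 0.0762). The classical receptor-feedback genes CYP26A1 and RARB were outside the callable range, with log2 fold changes of -0.03 and -0.08. TNFSF10, the death ligand TRAIL, was at 7.42, 7.49 and 8.05 without ATRA and 7.51, 7.30 and 7.93 with it, overlapping throughout (log2 fold change -0.07, adjusted p = 0.989, limma).

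Promoters of the largest rises are shown because retinoic acid receptors are known to bind pairs of the hexamer AGGTCA or GGTTCA. RefSeq promoter windows (GRCh38.p14, 250 bases before to 50 after the start) were found for 12 of the 15 largest rises, 26 windows in all, of which 6 windows of 5 genes held the hexamer on either strand before the start. Below are the 250 bases before the start for 3 of these windows and for VSIG4, described further on, 5′ to 3′ on the strand of the gene with the hexamer in capitals.
DHRS3, chr1:12616790-12617039, minus strand: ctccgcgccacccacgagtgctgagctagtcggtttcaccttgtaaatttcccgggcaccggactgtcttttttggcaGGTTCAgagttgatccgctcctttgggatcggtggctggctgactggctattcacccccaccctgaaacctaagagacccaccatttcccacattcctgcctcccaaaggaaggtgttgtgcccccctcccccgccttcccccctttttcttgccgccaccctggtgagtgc
DHRS3, chr1:12596614-12596863, minus strand: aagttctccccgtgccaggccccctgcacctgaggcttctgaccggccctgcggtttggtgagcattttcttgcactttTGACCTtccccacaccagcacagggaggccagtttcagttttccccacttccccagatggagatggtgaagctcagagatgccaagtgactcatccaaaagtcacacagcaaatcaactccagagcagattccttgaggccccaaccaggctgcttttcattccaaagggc
GNG2, chr14:51846913-51847162, plus strand: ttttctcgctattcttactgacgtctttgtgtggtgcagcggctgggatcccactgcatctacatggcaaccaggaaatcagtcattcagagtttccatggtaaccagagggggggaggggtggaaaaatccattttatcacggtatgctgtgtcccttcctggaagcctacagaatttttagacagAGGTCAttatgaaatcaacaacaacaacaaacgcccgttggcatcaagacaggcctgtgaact
VSIG4, chrX:66040081-66040330, minus strand: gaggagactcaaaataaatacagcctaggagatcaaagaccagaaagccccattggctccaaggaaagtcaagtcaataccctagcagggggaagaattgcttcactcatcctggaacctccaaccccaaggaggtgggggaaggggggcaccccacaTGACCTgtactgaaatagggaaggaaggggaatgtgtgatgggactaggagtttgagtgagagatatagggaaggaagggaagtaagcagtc
The hexamer starts 172 and 171 bases before the start in the DHRS3 windows, 63 before it in GNG2 and 92 before it in VSIG4. Over windows of 300 bases, the hexamer was present on either strand in 51 of 225 windows (22.7%) of raised genes, 19 of 154 (12.3%) of lowered genes, 1396 of 8823 (15.8%) of all callable genes and 7342 of 35116 (20.9%) of all promoters in the table. A direct repeat of it spaced by 1, 2 or 5 bases was found in 0 windows of raised or lowered genes and in 8, 2 and 10 of all 35116. Only AGGTCA and GGTTCA were searched, and direct repeats this rare cannot tell the sets apart. The shares of windows with the single hexamer were not tested between the sets.

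Kinases and adaptors of phagocyte signaling, with the G protein and receptor genes beside them, held several of the strongest rises. FGR, a Src family kinase of mature myeloid cells, was at 5.98, 6.43 and 6.41 without ATRA and at 9.91, 9.75 and 9.94 with it (log2 fold change 3.59, adjusted p = 3.98e-11, limma). SLA, an adaptor that lowers receptor signaling, rose from 7.94, 8.19 and 8.24 to 10.15, 9.86 and 10.08 (log2 fold change 1.90, adjusted p = 7.2e-06, limma). The groups of both genes were wide apart. LYN, another Src family kinase, rose by 0.75 on the log2 scale (adjusted p = 0.00278, limma) and the adaptor SKAP2 by 0.58 (adjusted p = 0.0253, limma), whereas FYN, of the same family, fell by 0.65 (adjusted p = 0.0403, limma). In this list of 14 callable genes, 4 rose and 1 fell, where 2.38% and 1.67% of all 7367 genes did. The median log2 fold change of the list was 0.60. SKAP2 and FYN were each called with only 1 of the 6 arrays left out (SKAP2 HKMTI-1-005 replicate 2, FYN HKMTI-1-005+ATRA replicate 3), with highest adjusted p of 0.194 and 0.204. GNG2, a G protein gamma subunit, was at 5.54, 5.49 and 5.24 without ATRA and 8.71, 8.75 and 8.40 with it, at similar levels within each group (log2 fold change 3.20, adjusted p = 4.37e-12, limma). PIK3CG, the catalytic subunit of the phosphoinositide kinase that G proteins activate, rose from 10.10, 10.22 and 10.22 to 11.98, 11.69 and 11.19 (log2 fold change 1.44, adjusted p = 2.12e-06, limma) and was chosen after its values were seen.

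Receptors for chemoattractants rose in 3 of 6 callable members and fell in 0, where 2.38% of all 7367 genes were called higher and 1.67% lower. P2RY13, an ADP receptor, was at 6.29, 6.22 and 6.09 without ATRA and at 9.85, 9.54 and 9.37 with it (log2 fold change 3.38, adjusted p = 1.75e-06, limma). CCR1, a receptor for inflammatory CC chemokines, rose from 7.23, 7.17 and 7.65 to 9.14, 8.76 and 8.56 (log2 fold change 1.47, adjusted p = 0.00381, limma). CCR2, the receptor for CCL2, rose from 7.33, 7.97 and 7.75 to 9.93, 9.73 and 8.69 (log2 fold change 1.77, adjusted p = 0.00101, limma). HKMTI-1-005+ATRA replicate 3 of CCR2 lay below the other two yet above every array without it. Among chemokine genes, CCL2 itself rose from 10.90, 9.98 and 10.55 to 12.66, 12.59 and 13.04 (log2 fold change 2.29, adjusted p = 0.000536, limma). CCL20 rose by 1.55 on the log2 scale (adjusted p = 0.0254, limma) and CCL5 fell by 0.84 (adjusted p = 0.0253, limma). CCL20 was not called without HKMTI-1-005 replicate 1 or 2 or HKMTI-1-005+ATRA replicate 1 or 3 (highest adjusted p = 0.15), and CCL5 was called only with HKMTI-1-005+ATRA replicate 3 left out (highest adjusted p = 0.184 among the others).

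Transport and metabolic genes were also among the largest rises. SLC2A5, the fructose transporter GLUT5, was at 7.36, 7.35 and 7.21 without ATRA and at 11.18, 10.99 and 10.68 with it (log2 fold change 3.64, standard error 0.24, adjusted p = 1.86e-12, limma). It was the called gene among 19 of glycolysis and hexose transport, where 2.38% of all 7367 genes were called higher. SMOX, which oxidises spermine, went from 6.38, 6.40 and 6.99 to 8.61, 8.59 and 9.05 (log2 fold change 2.16, adjusted p = 1.01e-07, limma), and ASRGL1, an asparaginase, from 6.33, 6.66 and 6.25 to 8.85, 8.95 and 8.10 (log2 fold change 2.22, adjusted p = 1.55e-06, limma). The groups of all 3 genes were far apart. MYBPH, a myosin-binding protein, went from 7.20, 6.77 and 6.17 to 10.22, 10.13 and 9.15, with replicate 3 the lowest of each group (log2 fold change 3.12, adjusted p = 1.53e-06, limma). ALOX5AP, which hands arachidonic acid to 5-lipoxygenase for leukotriene synthesis, went from 12.26, 12.14 and 12.46 to 13.22, 13.18 and 13.19 (log2 fold change 0.91, adjusted p = 0.00267, limma). ANKRD22 and PLEKHO1 rose by 2.64 and 2.35 on the log2 scale.

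Adhesion and oxidative burst genes with called rises included the CD11b gene. ITGAM, which encodes the CD11b chain of the complement receptor integrin, was at 6.88, 6.60 and 7.33 without ATRA and at 8.14, 8.05 and 8.00 with it (log2 fold change 1.12, standard error 0.28, adjusted p = 0.0188, limma). The groups were separate, though HKMTI-1-005 replicate 3 came closer to the arrays with ATRA than the others did. ICAM1, an adhesion ligand, went from 7.13, 6.85 and 7.79 to 9.53, 8.69 and 8.97 (log2 fold change 1.81, adjusted p = 0.00784, limma), and ITGB7 from 6.39, 6.57 and 6.58 to 8.13, 7.63 and 7.64 (log2 fold change 1.29, adjusted p = 0.011, limma). These were 3 of 12 callable integrin and adhesion genes, and 0 fell, where 2.38% of all 7367 genes rose and 1.67% fell. Without HKMTI-1-005+ATRA replicate 1, 0 of the 3 were called. ITGAM was also not called without HKMTI-1-005+ATRA replicate 2 or HKMTI-1-005 replicate 1 or 2 (highest adjusted p = 0.156) and ITGB7 without HKMTI-1-005 replicate 1 (highest adjusted p = 0.095). CYBB, the catalytic subunit of the phagocyte NADPH oxidase, rose from 11.42, 11.32 and 11.71 to 12.96, 13.01 and 12.80 (log2 fold change 1.44, adjusted p = 0.000195, limma). The other 7 oxidase genes all had positive log2 fold changes and were not called, with CYBA at 0.62 (adjusted p = 0.346, limma).

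Of 25 lysosome genes in the callable range, 24 had a positive log2 fold change, the median was 0.45, and 5 were called, all higher. Over all 7367 genes, 3597 had a positive change and 2.38% were called higher. Without an inhibitor 8 of the lysosome genes were called higher (5.23% of all genes were), and under GSK343 7 were (3.35%). PSAP, the precursor of the saposins that aid glycolipid breakdown, was at 10.36, 10.25 and 10.28 without ATRA and 11.34, 11.15 and 11.28 with it (log2 fold change 0.96, adjusted p = 1.43e-06, limma). GRN (progranulin), the protease CTSB, the glucuronidase GUSB and the membrane protein CD63 rose by 0.94, 0.82, 0.65 and 0.45 on the log2 scale (adjusted p = 0.019, 0.00697, 0.0258 and 0.0396, limma). Leaving out an array left 2 to 4 of the 5 called. CTSB was lost without HKMTI-1-005 replicate 1 (highest adjusted p = 0.0766), GRN without HKMTI-1-005+ATRA replicate 1 or 2 or HKMTI-1-005 replicate 2 or 3 (0.104), CD63 without HKMTI-1-005 replicate 1 or 2 or HKMTI-1-005+ATRA replicate 2 or 3 (0.264), and GUSB without any of the 6 but HKMTI-1-005+ATRA replicate 3 (0.167). CTSD, the aspartic protease cathepsin D, had a log2 fold change of 0.98 with separate groups (9.40, 9.15 and 9.56 against 10.33, 10.28 and 10.45) and did not pass the test (adjusted p = 0.126, limma).

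The genes with the largest falls were of mixed function. VIM, the intermediate filament protein vimentin, was at 9.32, 9.45 and 9.50 without ATRA and at 6.25, 6.18 and 7.39 with it (log2 fold change -2.82, standard error 0.26, adjusted p = 7.83e-09, limma), a 7.04-fold fall. HKMTI-1-005+ATRA replicate 3 stood above the other two arrays with ATRA and far below all without it. SPNS3, a member of the spinster transporter family, fell from 8.45, 8.79 and 8.46 to 5.90, 5.86 and 6.31 (log2 fold change -2.54, adjusted p = 6.7e-10, limma), and KCNA3, a voltage-gated potassium channel, from 9.26, 9.44 and 8.51 to 6.40, 7.06 and 7.22 (log2 fold change -2.18, adjusted p = 7.33e-05, limma). CPT1A, which admits fatty acids to mitochondria, fell from 8.51, 8.41 and 8.53 to 7.04, 6.78 and 6.85 (log2 fold change -1.59, adjusted p = 1.89e-05, limma). The arrays within each group of CPT1A were close together. KDM7A, a demethylase of histone H3, fell from 7.06, 7.61 and 7.50 to 5.54, 5.96 and 6.33 (log2 fold change -1.45, adjusted p = 0.00168, limma). P2RX7, an ATP-gated channel, fell by 1.42 on the log2 scale, and AFF3, DTNA, PLD6 and EBF3 by 1.43, 1.37, 1.35 and 1.32. Among these only PLD6 depended on single arrays, without a call when HKMTI-1-005 replicate 1 or 2 or HKMTI-1-005+ATRA replicate 1 was left out (highest adjusted p = 0.137). ACY3, an aminoacylase, fell from 10.59, 10.55 and 10.06 to 8.53, 8.83 and 7.97 (log2 fold change -1.96, adjusted p = 0.000563, limma).

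The primary granule list, of genes that promyelocytes transcribe to fill their first granules and the protease inhibitors CST7 and SERPINB10, split. Of 11 in the callable range 3 fell and 0 rose, where 1.67% and 2.38% of all 7367 genes did, and the median log2 fold change was -0.25. CST7, an inhibitor of granule proteases, fell from 9.91, 9.75 and 9.49 to 7.76, 7.73 and 8.37 (log2 fold change -1.76, adjusted p = 1.63e-05, limma). CTSG, the protease cathepsin G, fell from 8.55, 8.69 and 8.30 to 6.67, 6.88 and 7.66 (log2 fold change -1.44, adjusted p = 0.00786, limma). HKMTI-1-005+ATRA replicate 3 was the highest of its group for both. SERPINB10, a protease inhibitor, had a log2 fold change of -1.57 (adjusted p = 0.0426, limma), while MPO, the granule peroxidase, and PRTN3 had -0.10 and 0.13 (adjusted p = 0.87 and 0.942). The granule protein genes ELANE and AZU1 had -0.16 and 0.15 (adjusted p = 0.906 and 0.933, limma). SERPINB10 was called only without HKMTI-1-005 replicate 3 (highest adjusted p = 0.209 among the others), and CTSG was not called without HKMTI-1-005 replicate 2 or HKMTI-1-005+ATRA replicate 1 or 2 (highest adjusted p = 0.0794), so that 1 of the 3 remained called without HKMTI-1-005+ATRA replicate 1. Of the secondary and tertiary granule genes, CHI3L1, a secreted lectin, rose from 11.10, 10.82 and 11.45 to 13.18, 13.08 and 12.71 (log2 fold change 1.87, adjusted p = 2.13e-07, limma), and 15 of the 20 measured, lactoferrin (LTF) among them, were outside the callable range. CHI3L1 was the 1 called gene among the 5 inside it, of which 3 had negative log2 fold changes, and their median was -0.20.

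In the BCL2 family, which sets the threshold for apoptosis, the 2 called genes moved in opposite directions. BCL2 fell from 9.37, 9.60 and 9.04 to 7.66, 8.16 and 8.02 (log2 fold change -1.39, standard error 0.26, adjusted p = 0.000813, limma). BCL2L1, which encodes BCL-XL, rose from 6.69, 6.70 and 6.92 to 7.37, 7.30 and 7.36 (log2 fold change 0.58, adjusted p = 0.0116, limma). The groups of both genes were separate, and BCL2L1 was not called without HKMTI-1-005 replicate 1 or 2 or HKMTI-1-005+ATRA replicate 1 (highest adjusted p = 0.0738). Of 9 callable stem and progenitor genes, 1 fell and 0 rose, where 1.67% of all 7367 genes were called lower, and 8 had negative log2 fold changes. Without an inhibitor 5 were called lower (7.85% of all genes were), and under GSK343 4 were (7.06%). The called gene was CDK6, a G1 kinase, with a log2 fold change of -0.83 (adjusted p = 0.0137, limma), not called without replicate 1 or 2 of either group (highest adjusted p = 0.0995). RXRA, the retinoid X receptor alpha, fell from 8.29, 8.02 and 8.44 to 7.41, 7.35 and 7.52 (log2 fold change -0.83, adjusted p = 0.000666, limma). It and DHRS3 were the 2 called genes among 7 of retinoid metabolism and reception, where 4.05% of all 7367 genes were called. In the interferon list IFI6 (log2 fold change 1.74, adjusted p = 8.05e-05, limma) and SAMHD1 (1.17, adjusted p = 0.012, limma) were 2 raised genes of 8, where 2.38% of all 7367 genes were raised. SAMHD1 was not called without HKMTI-1-005 replicate 1 or HKMTI-1-005+ATRA replicate 1 or 2 (highest adjusted p = 0.101, limma). CD1D, which presents lipids to T cells, rose from 7.14, 7.14 and 7.42 to 9.44, 9.47 and 9.16 (log2 fold change 2.13, adjusted p = 3.56e-09, limma).

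The targets of the inhibitor did not pass the test. EZH2 was at 9.76, 9.68 and 9.78 without ATRA and at 9.86, 9.82 and 9.65 with it (log2 fold change 0.03, adjusted p = 0.986, limma). EHMT1 and EHMT2 had log2 fold changes of 0.13 and -0.14 (adjusted p = 0.849 and 0.924, limma). Among the other genes of their pathways, 0 of 21 callable Polycomb genes and 0 of 19 of H3K9 methylation were called, with medians of 0.00 and -0.05. Of all 7367 genes 4.05% were called, so 0 in lists of this size is near that background. KDM1A, the H3K4 demethylase LSD1, was at 10.21, 10.50 and 10.17 without ATRA and at 10.31, 10.05 and 9.93 with it, which overlap (log2 fold change -0.20, adjusted p = 0.818, limma). DNA replication (33 genes), mitosis (30) and oxidative phosphorylation (23) also had 0 called genes, again near the background. Their median log2 fold changes were -0.10, 0.01 and 0.09, against -0.01 over all 7367 genes. Changes were negative for 27 of the 33 replication genes and positive for 16 of the 30 mitosis genes. They were positive for 18 of the 23 oxidative phosphorylation genes, of which 14 were negative without an inhibitor and 15 under GSK343. Over all 7367 genes, 3597 changes were positive, and the sign counts were not tested.

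The same cells answered ATRA without an inhibitor with 385 raised and 578 lowered genes (5.23% and 7.85%, together 13.1% of 7367) and ATRA under GSK343 with 247 and 520 (3.35% and 7.06%, together 10.4%). Of the 175 genes raised under HKMTI-1-005, 146 (83.4%) were also called higher without an inhibitor, where they were 37.9% of the 385. Of the 123 lowered genes, 105 (85.4%) were called lower there, 18.2% of the 578. With GSK343 the shared numbers were 120 of 175 (68.6%, and 48.6% of 247) and 89 of 123 (72.4%, and 17.1% of 520). No gene was called in opposite directions in either pair. The 3 responses share no arrays, and the change per gene under HKMTI-1-005 correlated across 7367 genes with that without an inhibitor (Pearson r = 0.838) and with that under GSK343 (r = 0.816). Genes are not replicates, and no p was computed for these values. Over the 578 genes lowered without an inhibitor, the median log2 fold change was -0.64 there and -0.34 under HKMTI-1-005, where 536 of them moved less. Over the 385 raised, it was 0.75 and 0.51. Over the 123 genes lowered under HKMTI-1-005, the median was -0.74 there and -0.75 without an inhibitor. Over the 175 raised under HKMTI-1-005, it was 0.83 and 0.87. Each set was chosen in 1 of the responses compared and tends to be larger there, so the medians are descriptions.

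**Figure D2:**
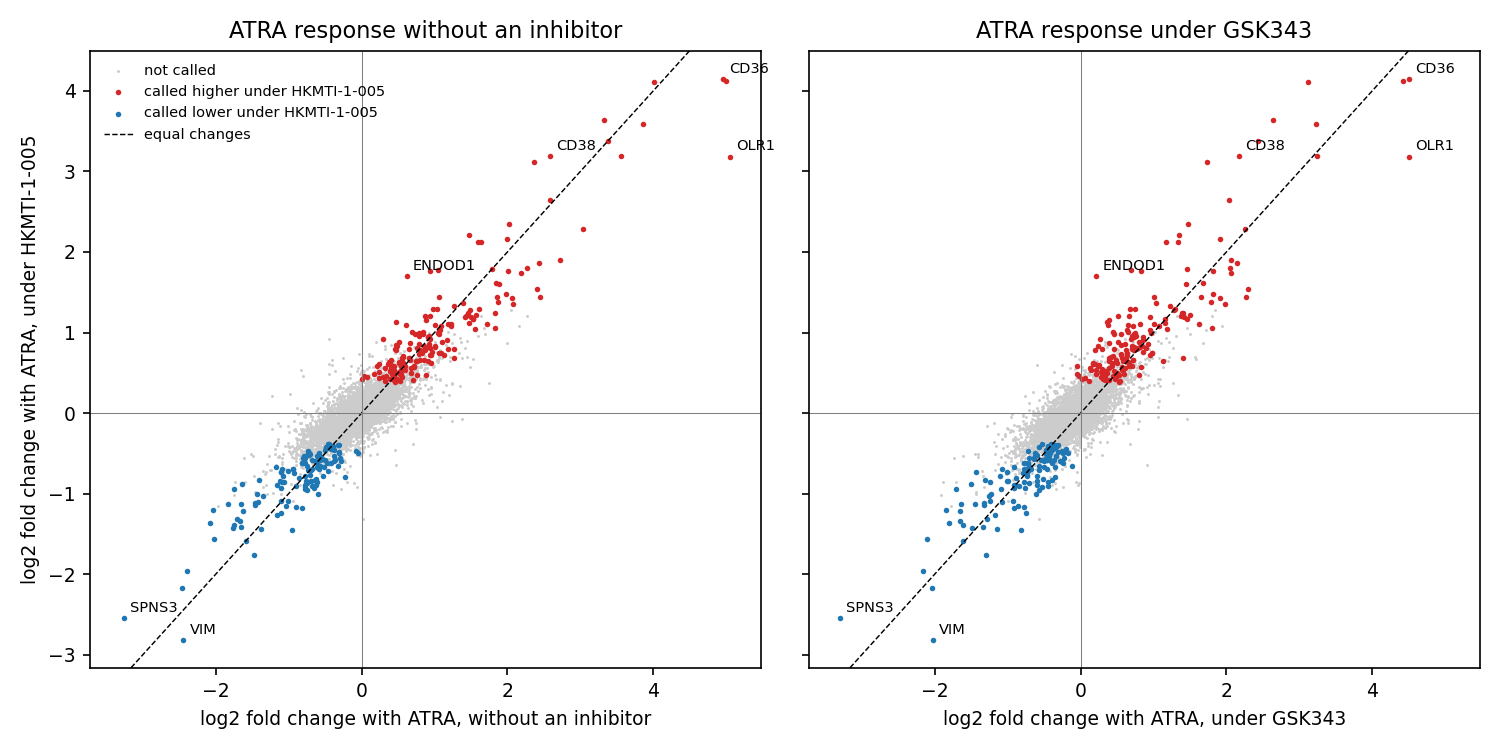
Log2 fold change with ATRA under HKMTI-1-005 (vertical) against that without an inhibitor (left) and under GSK343 (right); each point is 1 of 7367 genes, red and blue are the 175 raised and 123 lowered under HKMTI-1-005, and the dashed line marks equal changes. All 298 called genes have the same sign without an inhibitor, as do 172 of the 175 raised and all 123 lowered under GSK343, and OLR1 lies below the line with 3.18 against 5.06 and 4.50.

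ATRA raised 98 genes and lowered 59 in the cells labelled WT (1.33% and 0.801%, together 2.13% of 7367), and these genes were read on the arrays of the inhibitor experiment. Averaged over the 98 genes, the level was 8.24, 8.31 and 8.34 with HKMTI-1-005 and 9.63, 9.52 and 9.50 after ATRA. Over the 59 genes it was 8.76, 8.86 and 8.69 and then 7.90, 7.89 and 7.97. The groups were separate in both, and all 98 and all 59 genes moved in the direction seen in WT cells. So did 97 and 57 of them without an inhibitor, and 98 and 58 under GSK343. Their median log2 fold change was 0.99 under HKMTI-1-005, 1.01 without an inhibitor and 0.78 under GSK343 for the raised set, and -0.73, -0.70 and -0.68 for the lowered set. Under HKMTI-1-005, 77 of the 98 and 34 of the 59 were called, where 2.38% of all 7367 genes were called higher and 1.67% lower. Without an inhibitor 84 and 43 were called, and under GSK343 71 and 39.

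**Figure D3:**
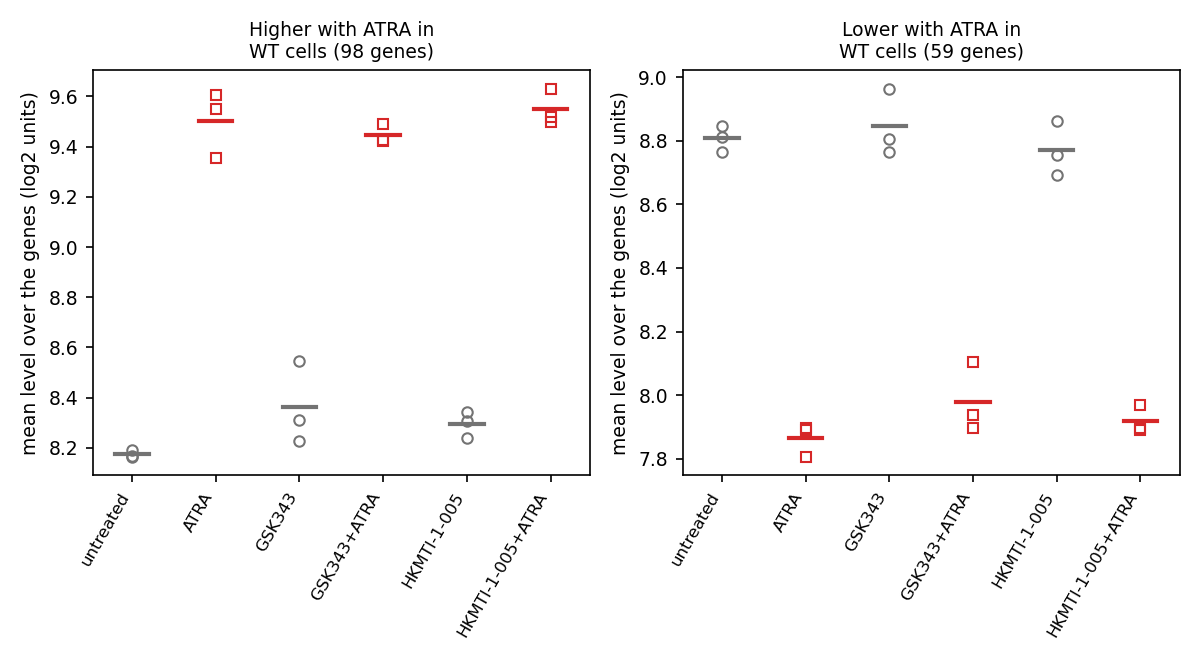
Mean level (log2 units) over the 98 genes raised (left) and the 59 lowered (right) by ATRA in WT cells, in each of 6 groups; circles are arrays without ATRA, squares arrays with ATRA and bars means of 3. The HKMTI-1-005+ATRA arrays sit at 9.50 to 9.63 (left) and 7.89 to 7.97 (right), next to those with ATRA alone.

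The difference between responses was tested directly. Against ATRA without an inhibitor, 0 of 7367 genes were called (limma, lowest adjusted p = 0.771), with 158 higher and 56 lower at an unadjusted p under 0.05 and a fold of 1.3. Against ATRA under GSK343, 0 were called (lowest adjusted p = 0.154), with 193 higher and 40 lower by the same count. With quantile normalization these counts were 117 higher and 103 lower against ATRA alone, and 120 and 110 against GSK343. Centring on array medians gave 163 and 63, and 196 and 50, so the lean toward higher depended on the scaling. The precision was limited: for the 60 named genes called under HKMTI-1-005, the 95% interval of the difference extended by a median of 0.72 to each side, and it lay within 2-fold for 24 of 60 against ATRA alone and 28 of 60 against GSK343. CD36 had a difference of -0.81 from ATRA alone (95% interval -1.95 to 0.33) and DHRS3 of 0.10 (-0.73 to 0.92). OLR1 had the difference -1.87 (-3.46 to -0.29, adjusted p = 1, limma). The genes of lowest unadjusted p in both tests included SMYD3, a lysine methyltransferase, with log2 fold changes of -0.04 under HKMTI-1-005, -0.70 without an inhibitor and -0.79 under GSK343. GNAQ, a G protein alpha subunit, was at 10.40, 10.33 and 10.32 without ATRA and 10.76, 10.94 and 10.72 with it under HKMTI-1-005 (log2 fold change 0.46, adjusted p = 0.00091, limma), against 0.03 without an inhibitor and -0.02 under GSK343. Its difference was 0.43 (adjusted p = 0.771, limma) and 0.48 (adjusted p = 0.349, limma). IL4R, a cytokine receptor, had 0.22 under HKMTI-1-005 (adjusted p = 0.834, limma), 1.20 without an inhibitor and 1.34 under GSK343, with differences that also missed the threshold.

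Called under HKMTI-1-005 and neither without an inhibitor nor under GSK343 in this set of arrays were 28 raised and 15 lowered genes. In the cells labelled WT, which also had no inhibitor, 5 of the 28 and 1 of the 15 were called in the same direction. All 15 of the lowered and 25 of the raised had the same sign in both other responses, and 20 of the 28 and 10 of the 15 had an unadjusted p under 0.05 without an inhibitor. The 4 with the largest rises, chosen after their values were seen, were CCR2, ENDOD1, RAB44 and AIG1, of which CCR2, ENDOD1 and RAB44 were also called higher with ATRA in WT cells (log2 fold changes 1.58, 1.90 and 0.97, limma) and AIG1 was not called without HKMTI-1-005+ATRA replicate 2. ENDOD1, an endonuclease-like protein, was at 6.84, 6.85 and 6.30 under HKMTI-1-005 and 8.55, 8.46 and 8.09 with ATRA added, against 7.52, 7.41 and 6.22 in untreated cells and 6.98, 7.89 and 8.14 with ATRA alone. The untreated and ATRA arrays overlapped, whereas those under HKMTI-1-005 were apart. In WT cells ENDOD1 rose by 1.90 on the log2 scale (adjusted p = 0.000141, limma). The difference of responses was 1.08 (unadjusted p = 0.0144, adjusted p = 1, limma). RAB44, a Rab GTPase of granulated cells, rose by 1.14 on the log2 scale (adjusted p = 0.000508, limma) against 0.47 without an inhibitor (adjusted p = 0.178, limma). The largest fall of this kind that was called whichever array was left out was in RPS6KA2, a ribosomal S6 kinase, with log2 fold changes of -0.79 (adjusted p = 0.00239, limma) and -0.23 (adjusted p = 0.514, limma).

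MYC and ribosome biogenesis genes, and sterol and fatty acid synthesis genes, had members called lower with ATRA without an inhibitor (where 7.85% of 7367 genes were) and under GSK343 (7.06%), and 0 under HKMTI-1-005, where 1.67% of all genes were called lower. A count of 0 in lists of 29 and 22 genes is near that background. MYC itself was at 11.79, 12.06 and 11.33 with HKMTI-1-005 and at 10.58, 11.35 and 11.08 after ATRA, with overlap between the groups (log2 fold change -0.72, standard error 0.29, adjusted p = 0.26, limma). Without an inhibitor MYC went from 11.96, 12.28 and 11.41 to 9.97, 10.59 and 11.04 (log2 fold change -1.35, adjusted p = 0.00265, limma), and the difference of 0.63 between the responses had a 95% interval of -0.21 to 1.48 (adjusted p = 1, limma). All 29 callable genes of the MYC and ribosome list had negative log2 fold changes under HKMTI-1-005, with a median of -0.20 and 0 called, against -0.48 with 10 called lower without an inhibitor and -0.52 with 11 under GSK343. The mean level over these genes was 9.79, 10.06 and 9.71 without ATRA and 9.68, 9.61 and 9.53 with it, so that all arrays with ATRA lay below. For 22 sterol and fatty acid genes the medians were -0.21 with 0 called, -0.75 with 10 called lower and -0.72 with 8. SCD, the stearoyl-CoA desaturase, was at 11.49, 11.45 and 11.11 under HKMTI-1-005 and 11.47, 11.51 and 10.72 with ATRA added, and went from 11.52, 11.74 and 11.11 to 9.59, 9.89 and 10.73 without an inhibitor (difference of responses 1.27, adjusted p = 0.771, limma). The difference from the response without an inhibitor had a median of 0.27 over the MYC and ribosome list and 0.50 over the sterol list, against 0.04 over all 7367 genes. At an unadjusted p under 0.05 it was positive for 3 of 29 and 3 of 22 and negative for 0 of either, and no gene of these lists passed the adjusted test. Over all 7367 genes the difference was positive for 203 and negative for 69 at that p, and positive at any p for 4321. A count of 0 negative in lists of this size is near that background. The 9 callable stem and progenitor genes had a median difference of 0.40, also above that of all genes.

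**Figure D4:**
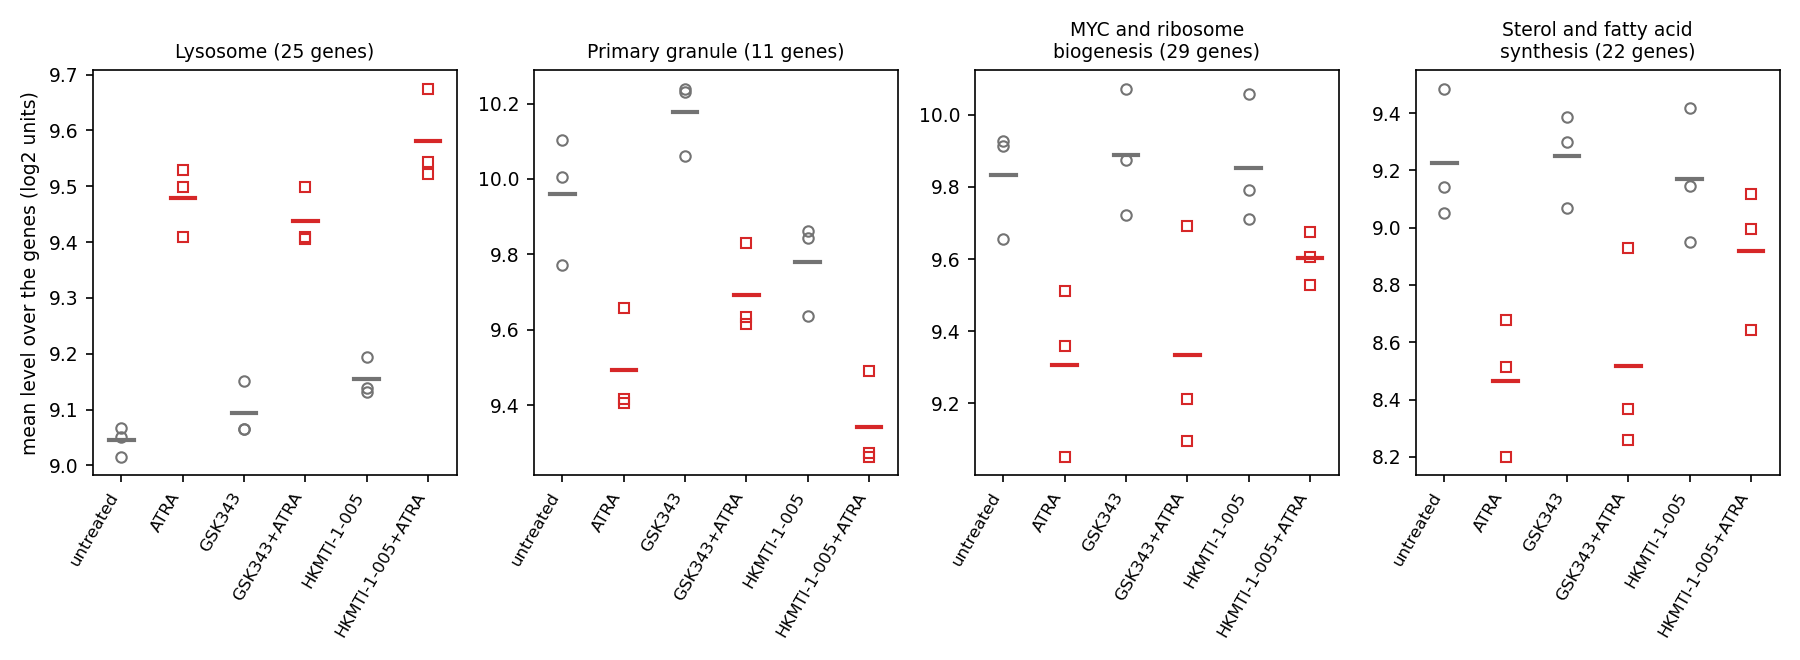
Mean level (log2 units) over the callable genes of 4 lists in each of 6 groups; circles are arrays without ATRA, squares arrays with ATRA and bars means of 3. The mean over lysosome genes is higher and that over primary granule genes lower with ATRA in all 3 settings. Under HKMTI-1-005, CST7, CTSG and SERPINB10 were the called members of the primary granule list, while MPO, PRTN3, ELANE and AZU1 were not called. Sterol means of HKMTI-1-005+ATRA arrays overlap those of HKMTI-1-005 arrays. MYC and ribosome means under HKMTI-1-005 go from 9.71 to 10.06 without ATRA to 9.53 to 9.68 with it.

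The limit on mean level removed genes that were low in most of the 42 arrays, and without it 499 genes were called (281 higher, 218 lower), 201 of them below the limit. Those with the largest changes were chosen after their values were seen. PTGES, the prostaglandin E synthase, was at 4.10, 4.08 and 4.90 without ATRA and at 8.59, 8.14 and 8.38 with it (log2 fold change 4.01, adjusted p = 5.5e-11, limma). ASB2, a ubiquitin ligase adaptor named for its induction by retinoic acid, went from 4.54, 4.57 and 5.39 to 8.22, 7.94 and 7.72 (log2 fold change 3.13, adjusted p = 9.87e-07, limma). ITGA6, an integrin chain, rose by 2.76 on the log2 scale and the leukocyte receptor LILRA5 by 3.00. JUN, a subunit of the AP-1 transcription factor, fell from 7.44, 7.64 and 7.62 to 5.84, 5.84 and 6.37 (log2 fold change -1.55, adjusted p = 7.6e-06, limma). HHLA2, an immune checkpoint ligand, fell by 2.39 on the log2 scale, and GATA2, a stem and progenitor transcription factor, by 0.98 (adjusted p = 0.00173, limma).

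VSIG4, a complement receptor of macrophages that also lies below the limit, had a larger rise under HKMTI-1-005 than in the other responses. Its level was 4.88, 5.18 and 5.57 with HKMTI-1-005 and 9.00, 8.40 and 9.04 with ATRA added (log2 fold change 3.60, standard error 0.22, adjusted p = 1.86e-12, limma). ATRA alone took it from 4.55, 4.79 and 4.57 to 6.88, 6.87 and 6.29, and under GSK343 from 4.69, 4.75 and 4.78 to 6.38, 6.23 and 6.05. ATRA raised it in all 3 settings, with no overlap between any HKMTI-1-005+ATRA array and the arrays with ATRA alone or with GSK343 and ATRA. The difference from the GSK343 setting was 2.12 (adjusted p = 0.00154, limma) and that from ATRA alone was 1.56 (adjusted p = 0.115, limma). The difference from GSK343 was no longer past the threshold when only the arrays of the groups compared entered the fit (adjusted p = 0.0776).

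**Figure D5:**
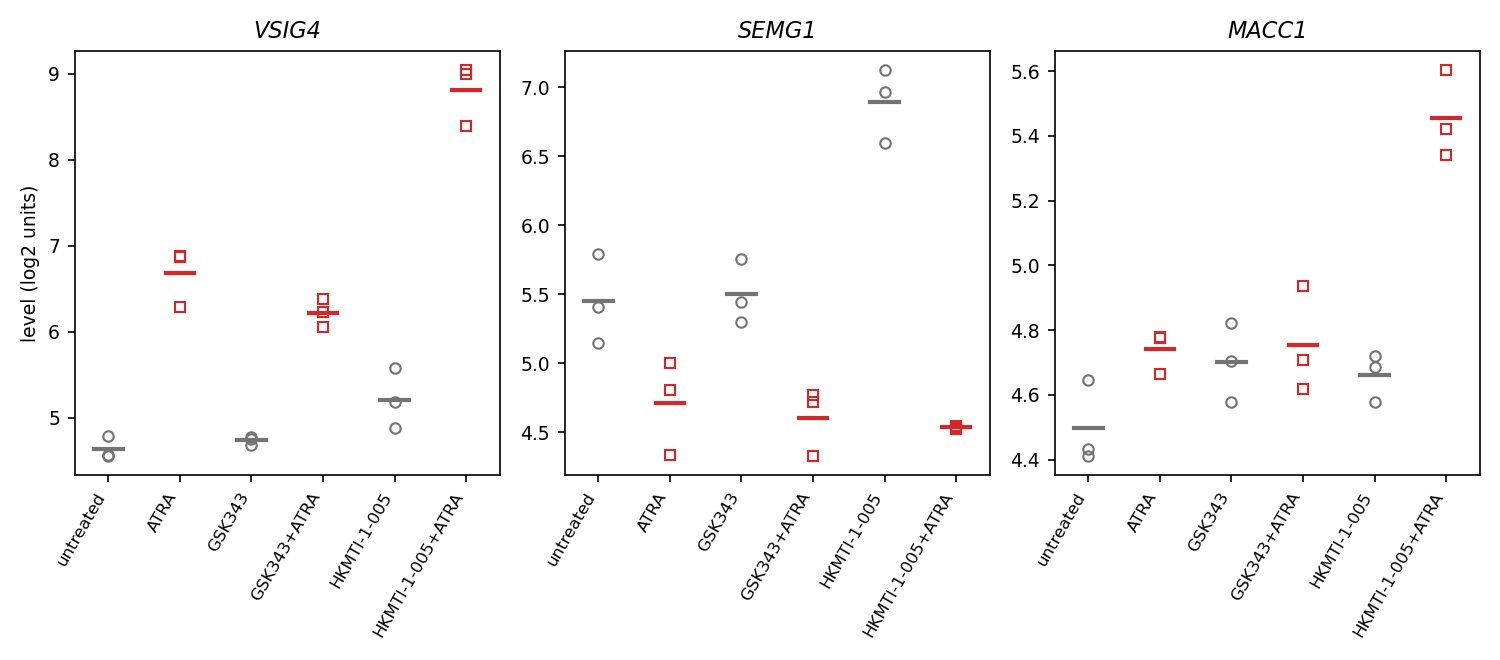
Levels (log2 units) of VSIG4, SEMG1 and MACC1, the 3 genes with a difference between ATRA responses past the threshold when no limit on mean level was set, in each of 6 groups; circles are arrays without ATRA, squares arrays with ATRA and bars means of 3. VSIG4 reaches 8.40 to 9.04 in HKMTI-1-005+ATRA cells, and SEMG1 is highest, at 6.59 to 7.13, with HKMTI-1-005 without ATRA.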

How the data were processed

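The series holds 42 Affymetrix Human Gene 1.0 ST arrays of HL-60 RNA. The authors applied GC-RMA normalization (Partek Genomics Suite), followed by removal of variation due to batch and date. The deposited values are log2 levels per probe set, taken as log2 from their range (3.18 to 14.5, median 5.4). Which array belonged to which batch is not given in the sources used here, and no batch term was fitted. The number of arrays limits the precision.

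Of 33297 probe sets, 19460 carried 1 symbol, 1754 several and 12083 none in the platform annotation, and 19429 of the 19460 matched RefSeq by Entrez identifier. The brightest probe set stood for each of 18417 genes. Genes with no probe set of their own, such as RARA, were not analysed here. One mean per group was fitted over the 42 arrays (14 groups, 28 residual and 3.37 prior degrees of freedom) with limma 3.58.1 in R 4.3.3. The 14 groups included those with EZH2 knockdown and non-targeting control, so their arrays shared in the estimate of the spread. P-values were two-sided and adjusted over 18417 genes with the Benjamini-Hochberg method. The call rule followed the methods: adjusted p of 0.05 or less, 1.3-fold or more and the top 40% by mean over all 42 arrays (7367 genes, lowest mean 6.88). Intervals of differences are 95% intervals of the same fit. Replicates are described as biological triplicates.

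Named genes are the 15 largest rises and falls with separate groups, called list members up to 6 per list, genes the paper names, and the 5 of lowest p in each direction of a test of difference. Genes, members and lists were chosen with earlier results of these data known. Some genes under the rule are not reported. Lists are described by counts and medians without a set test. Alternatives changed the arrays fitted, filter, fold, scaling, variance model and probe sets, used the methods' t-test, and left out each array. No p-value was computed for promoter matches.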

Additional observations from a re-analysis of the deposited data

Results flagged for a closer look

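With no limit on mean level, the ATRA response under HKMTI-1-005 differed from another ATRA response by the test of the difference itself (limma, adjusted over 18417 genes) for 3 genes. For VSIG4 the response was 2.12 higher on the log2 scale than under GSK343 (standard error 0.32, adjusted p = 0.00154). It was 1.56 higher than without an inhibitor, which did not pass (adjusted p = 0.115).

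SEMG1, which encodes the seminal protein semenogelin, was at 6.59, 7.13 and 6.97 with HKMTI-1-005 and at 4.54, 4.54 and 4.53 with ATRA added. In untreated cells it was at 5.15, 5.41 and 5.79, with ATRA alone at 5.00, 4.81 and 4.34, with GSK343 at 5.30, 5.44 and 5.75 and with GSK343 and ATRA at 4.77, 4.72 and 4.33. The arrays with HKMTI-1-005 and no ATRA were thus the highest of the 6 groups, while the groups with ATRA lay close together. The response differed by -1.62 from that without an inhibitor (adjusted p = 0.000244) and by -1.47 from that under GSK343 (adjusted p = 0.00154).

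MACC1, a regulator of MET transcription, was at 4.69, 4.58 and 4.72 with HKMTI-1-005 and at 5.60, 5.42 and 5.34 with ATRA added, and between 4.41 and 4.94 in the other 4 groups. Its response was 0.74 higher than under GSK343 (adjusted p = 0.0104) and 0.55 higher than without an inhibitor (adjusted p = 0.382). The MACC1 difference from GSK343 was not past the threshold without HKMTI-1-005+ATRA replicate 1 (adjusted p = 0.0846), GSK343 replicate 2 (0.0891), HKMTI-1-005 replicate 2 (0.0571) or GSK343+ATRA replicate 2 (0.0593). With only the arrays of the groups compared in the fit, none of these differences passed, with adjusted p of 0.212 and 0.23 for SEMG1, 0.362 for MACC1 and 0.0776 for VSIG4 from GSK343. With the 18 inhibitor arrays in the fit, SEMG1 (adjusted p = 0.119 and 0.16) and MACC1 (0.16) did not pass either. All 3 genes have means in the lower 60% of genes.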

How the results depend on the processing

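The 298 genes called for ATRA under HKMTI-1-005 became 568 with the inhibitor arrays alone in the fit, 452 with only the 6 arrays compared, 501 with the array median as a covariate, 521 with array weights, 499 with no expression filter, 100 at a 2-fold threshold and 13 with the methods' t-test (9 higher, 4 lower; 396 and 319 at an unadjusted p under 0.05). Leaving out 1 array gave 168 to 272. The replicate block gave 282, of which 271 were also called without it. Deviations of same-numbered arrays correlated at -0.129, 0.187 and 0.328, so the numbers were not taken as pairs. The other scalings, variance model and probe set rule kept the count within 1.5 times. No named gene reversed under any alternative, and the t-test kept 5 of 60 named calls.

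The difference from ATRA without an inhibitor had 0 called genes except with no expression filter (1). That from GSK343 had 3 with array weights, 3 with no expression filter and 1 each without HKMTI-1-005+ATRA replicate 3 and GSK343+ATRA replicate 3, so that leaving out an array gave 0 to 1. For ATRA without an inhibitor the 963 became 197 at 2-fold, 8 with the t-test and 433 to 1075 with an array left out (433 without ATRA replicate 1, 549 without untreated replicate 2). For ATRA under GSK343 the 767 became 1172 with the array median as a covariate, 1290 with array weights, 147 at 2-fold, 0 with the t-test (400 higher and 630 lower at an unadjusted p under 0.05) and 306 to 1057 with an array left out (306 without GSK343+ATRA replicate 1, 310 without GSK343 replicate 2, 370 without GSK343+ATRA replicate 2). Quantile normalization moved the share of higher genes from 40.0% to 49.4% without an inhibitor and from 32.2% to 47.4% under GSK343. For the genes lowered in WT cells, the median of -0.73 became -0.65 with no filter on the mean level and -0.80 to -0.68 with an array left out. With 3 arrays per group, changes of small size can be missed, and a count of 0 does not show equal responses.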
